A study of Mus musculus with 16 samples.

Results

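The genes described here encode the enzymes and regulators by which cells make cholesterol and fatty acids. They were chosen as 30 gene symbols in 3 groups: 16 genes of the sterol synthesis route, 5 genes that control it or carry sterol, and 9 genes of fatty acid synthesis, elongation and desaturation. Every probe annotated to one of these symbols was read, which gave 35 probes for 27 of the 30 genes among 16593 genes with a named probe on the array. Acat2, Mvk and Fdft1, all of the sterol route, had no probe named after them. Of the 27, 26 were tested among 9682 genes tested in all: a gene was tested where 6 or more arrays gave a probe of it a detection p-value under 0.01, its rank among the negative control beads of the array. Fasn, the fatty acid synthase itself, was the exception, since its probe passed that limit on 2 mutant arrays and 1 control array.

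The tissue was the pituitary gland of mouse embryos at embryonic day 17.5, on a mixed background of C57/BL6 and 129Ola. The tested embryos were Insm1 -/- (6 samples, called mutants here) and their controls were Insm1 +/- (10 samples), so the controls also carried 1 mutant allele of Insm1, a zinc finger factor of endocrine cells. Total RNA was hybridised to Illumina mouse expression bead arrays, 1 array a sample. The labels number the samples but do not say whether a sample was a single gland or a pool, so the p-values take in the spread between these samples and no other. Levels are log2 of the background-corrected, quantile-normalised bead intensity, a change is the mutant mean minus the control mean on that scale, and a gene is called higher or lower where its adjusted p from limma is under 0.05.

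Cholesterol is built from acetyl-CoA through the mevalonate pathway to squalene, which is closed into lanosterol and then trimmed, reduced and rearranged into cholesterol. Fatty acids are built from the same acetyl-CoA by acetyl-CoA carboxylase and fatty acid synthase, and are then lengthened by elongases of the Elovl family and given double bonds by desaturases. Both routes are driven by the SREBP transcription factors, which Scap carries out of the endoplasmic reticulum when sterol is low and which Insig proteins hold back when it is high; pituitary hormone cells use the products in the membranes of their secretory granules.

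The arrays of both groups were of like brightness and depth. Median raw intensity ran between 96.5 and 132 in mutants and between 102 and 122 in controls, and 12928 to 13671 probes were detected on mutant arrays against 12892 to 14156 on control arrays. Of the 2 slides, slide 1 carried 4 arrays of each group, while slide 2 carried 2 mutant and 6 control arrays. The Insm1 probe was not lower in mutants: it read 11.44, 11.81 and 12.04 at the lowest, median and highest mutant and 11.17, 11.40 and 11.66 in controls (change 0.36, limma adjusted p = 0.0135), and because the place of this probe relative to the mutated part of the gene is not given, it checks no label. Control 10 stood apart on the first principal component, at -2.42, with the other controls at 18.2 to 26.9 and the mutants at -37.5 to -24.7, so results that move with it are given without it as well.

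Levels of cell type markers in the RNA of these glands differed between the groups. In bulk tissue fewer cells of a type and less RNA per cell cannot be told apart. All 10 tested hormone cell markers, which define the tissue, were present in controls and called lower in mutants (median change -3.02), and the summed level of the list was 8810 to 15515 in mutants against 80763 to 118944 in controls, lowest in control 10. Ghrhr and Lhb were detected on no mutant array, so they passed the detection limit through controls alone. All 9 tested skeletal muscle markers were higher (median change 1.84, summed level 15176 to 22903 in mutants and 1248 to 11113 in controls, highest in control 10), and 7 of 9 macrophage markers were higher (4550 to 5744 in mutants, 3290 to 4433 in controls). Of the muscle markers, Myod1 was detected on 6 mutant and 0 control arrays, so it passed the detection limit through mutants alone. The pituicyte and astroglia list gave 3 of 6 higher (8513 to 12389 against 5989 to 8875), and the neuron list 3 of 7 lower (2006 to 2894 against 2665 to 4012). Among fat cell markers 7 of the 9 on the array, Adipoq, Plin1 and Lep among them, were detected on no array, and 1 was tested, Cidea, which was higher (list sum 401 to 576 against 312 to 446). Of the markers of myelinating glia 1 of 4, Mbp, was lower (1543 to 1971 against 1553 to 2008). The other tested Mbp probe changed by 0.09 (limma adjusted p = 0.694). The Mbp call was lost with the mean of all probes (-0.12, adjusted p = 0.451) and within each slide (adjusted p = 0.0761 and 0.0803). None of 5 erythroid, 8 endothelial or 8 mesenchymal markers was called by limma, with 0, 1 and 0 of them at an unadjusted p under 0.05. Their summed levels were 48854 to 54231 against 47554 to 51578, 15888 to 18963 against 14359 to 17274, and 16724 to 26464 against 16118 to 25162. Without control 10, 1 endothelial marker was higher. The erythroid sum includes Hba-a1, which read 15.47 on every mutant array (SD 0) and 15.36 to 15.47 on controls, at the ceiling of the scale. Within slide 2 Alas2 (0.58, limma adjusted p = 0.0462) and Klf1 (0.66, 0.0430) were higher, against 2.77% of all genes. On slide 1 they changed by -0.01 and -0.04 without a call. These shifts in marker levels run alongside every change below, and their part in it was not tested.

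Of the 26 genes tested, 7 were lower in mutants and 1 was higher. The lower genes were Elovl6, Dhcr7, Cyp51, Scd1, Fads1, Pmvk and Ebp, and the higher one was Hsd17b7. Over all 9682 genes 14% were called lower and 15.9% higher, or 29.9% in either direction, so 8 called of 26 is a share near that of the array as a whole, while the split by direction was 26.9% lower and 3.85% higher. The changes were also small: the median absolute change was 0.12 for these 26 genes and 0.17 for all genes, and the median change was -0.04 against 0.03. With slide as a block 5 were lower and 2 higher, with Scd1 and Ebp lost and Acaca joining Hsd17b7, against 14.5% and 15.8% of all genes. Without control 10 the counts were 6 (Ebp lost) and 1, against 14.3% and 16.1%, and with each array scaled to a common median 3 and 1, against 13.1% each way. Of the 18 genes that were not called, 15 had a 95% confidence interval that lay within 0.5 of no change in both directions.

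**Figure D1:**
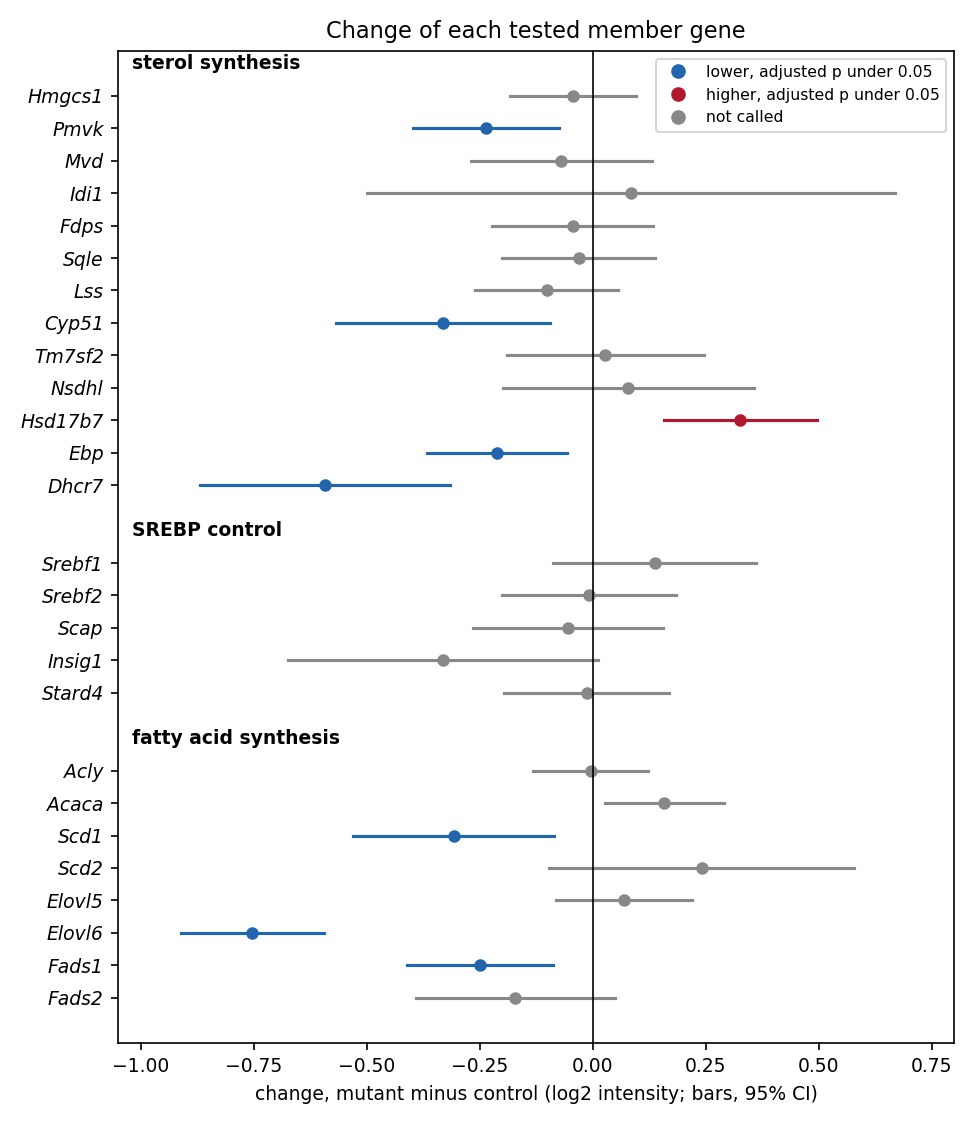
Change of each of the 26 tested genes, mutant minus control, on the log2 intensity scale, with 95% confidence intervals as bars, in 3 groups by role. Blue points are the 7 genes called lower and the red point is Hsd17b7, called higher; Elovl6 at -0.75 and Dhcr7 at -0.59 lie farthest from 0, and Idi1 has the widest interval.

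The promoters of 4 genes are printed to show how differently members of a shared pathway begin: Elovl6 and Dhcr7, which fell most, Hsd17b7, which rose, and Hmgcs1, whose level differed little between the groups and which, alone among the genes with a window, holds a classical sterol regulatory element. They were chosen after the values were seen. Each is the RefSeq window of assembly GRCm38.p6 that runs 250 bases before to 50 after the gene's start, written 5′ to 3′ along the gene's strand: Elovl6 at chr3:129532136-129532435 on the + strand, Dhcr7 at chr7:143829964-143830263 on the + strand (1 of its 3 windows), Hsd17b7 at chr1:169969156-169969455 on the - strand, and Hmgcs1 at chr13:119690101-119690400 on the + strand. Capitals mark the sterol regulatory element TCACNCCAC, the NF-Y box CCAAT and the E-box CACGTG, on either strand, so that CCAAT on the other strand reads ATTGG.
Elovl6: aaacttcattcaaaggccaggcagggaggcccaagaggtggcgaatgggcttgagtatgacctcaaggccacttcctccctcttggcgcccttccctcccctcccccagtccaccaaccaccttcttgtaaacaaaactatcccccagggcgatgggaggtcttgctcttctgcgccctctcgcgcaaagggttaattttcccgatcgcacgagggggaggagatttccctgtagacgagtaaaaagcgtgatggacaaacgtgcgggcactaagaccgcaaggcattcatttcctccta
Dhcr7: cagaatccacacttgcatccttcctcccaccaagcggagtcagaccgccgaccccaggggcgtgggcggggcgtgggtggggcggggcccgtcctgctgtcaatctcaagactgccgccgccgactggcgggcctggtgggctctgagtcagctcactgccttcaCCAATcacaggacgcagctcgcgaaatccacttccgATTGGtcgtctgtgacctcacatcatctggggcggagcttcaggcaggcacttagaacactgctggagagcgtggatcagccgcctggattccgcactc
Hsd17b7: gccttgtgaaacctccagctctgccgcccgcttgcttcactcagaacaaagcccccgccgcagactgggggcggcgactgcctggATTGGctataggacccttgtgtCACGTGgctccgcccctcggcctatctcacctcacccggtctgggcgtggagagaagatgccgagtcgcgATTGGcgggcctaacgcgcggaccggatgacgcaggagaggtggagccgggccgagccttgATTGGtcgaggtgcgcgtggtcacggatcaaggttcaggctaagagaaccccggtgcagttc
Hmgcs1: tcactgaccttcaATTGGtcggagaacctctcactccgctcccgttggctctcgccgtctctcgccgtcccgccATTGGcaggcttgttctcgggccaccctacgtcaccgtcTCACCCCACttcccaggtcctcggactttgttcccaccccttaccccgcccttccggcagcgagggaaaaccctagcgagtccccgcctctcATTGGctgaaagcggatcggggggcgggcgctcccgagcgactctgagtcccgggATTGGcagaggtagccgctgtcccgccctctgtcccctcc
The Elovl6 window holds none of the motifs searched, the Dhcr7 window holds 2 CCAAT boxes, the Hsd17b7 window 3 with 1 CACGTG, and the Hmgcs1 window 4 with 1 TCACNCCAC. Of the 3 Dhcr7 windows, the printed window was picked because it holds CCAAT. The other Dhcr7 windows hold no CCAAT, and the window at chr7:143823149-143823448 holds CACGTG.

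The same motifs, and the Sp1 box GGGCGG (not capitalised), were searched on both strands of the windows of 23 of the 30 genes; Fdps, Fdft1, Sqle, Stard4, Fads1, Scd1 and Scd2 had no window in the table used. TCACNCCAC was found in 1 of the 23 genes, against 1.44% of all genes with a window (1.24% of all 32851 promoter windows). The looser TCACNCNAC, which includes the first, was found in Hmgcs1 and Nsdhl, against 3.15% of all genes (2.7% of windows). CCAAT was found in 18 of the 23 genes, or 78.3%, against 41.1% of all genes with a window (37.4% of windows). GGGCGG was likewise found in 18 of 23, against 38.2% of all genes (35.7% of windows), and CACGTG in 5 of 23, against 8.09% (7.15% of windows). Among the 6 called genes with a window, 5 hold CCAAT (Cyp51, Dhcr7, Ebp, Hsd17b7 and Pmvk, hence both directions) and 0 hold TCACNCCAC; among the 14 tested genes with a window that were not called, 11 hold CCAAT. A match describes letters in this window and no more.

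Within the sterol route 13 genes were tested, of which 4 were lower and 1 higher, with a median change of -0.04 and 9 of the 13 changes below 0. Over all genes 14% were lower and 15.9% higher. Of the 7 enzymes that lead to lanosterol 1 was called. Pmvk, phosphomevalonate kinase, read 8.16, 8.32 and 8.57 at the lowest, median and highest mutant, against 8.43, 8.57 and 8.74 in controls. It fell by 0.24 (SE 0.077, limma adjusted p = 0.0284). Mutants 1, 2 and 3 lay below every control and the other 3 mutants lay among the controls. Leaving out any of those 3 mutants ended the call (adjusted p = 0.0703, 0.0792 and 0.0782), and the change was -0.27 on slide 1 and -0.08 on slide 2.

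The other 6 tested genes before lanosterol were not called. Hmgcs1, the synthase that makes HMG-CoA at the head of the route, read 12.86, 12.98 and 13.00 in mutants and 12.84, 12.97 and 13.16 in controls (change -0.04, 95% confidence interval -0.18 to 0.10), so the groups overlapped nearly in full. Mvd, mevalonate diphosphate decarboxylase, changed by -0.07 (-0.27 to 0.13), Fdps, farnesyl diphosphate synthase, by -0.04 (-0.22 to 0.13), Sqle, squalene epoxidase, by -0.03 (-0.20 to 0.14), and Lss, lanosterol synthase, by -0.10 (-0.26 to 0.06). Each of these 5 intervals lay within 0.5 of no change. Idi1, the isopentenyl diphosphate isomerase, could not be judged as closely. Its probe was detected on 5 of 6 mutant and 7 of 10 control arrays. Its levels spread most of all (SD 0.56 in mutants and 0.62 in controls), and its interval ran from -0.50 to 0.67 around 0.09. The Idi1 change was 0.32 on slide 1, 0.33 on slide 2 and 0.33 with slide as a block. None of these passed the threshold (limma adjusted p = 0.285, 0.587 and 0.215).

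After lanosterol 6 enzymes were tested, and 3 were lower and 1 higher, with a median change of -0.09, where 14% of all genes were lower and 15.9% higher; these few genes were not tested against the 7 before it. Dhcr7, the reductase of the last step to cholesterol, had the largest sterol change. It read 7.56, 7.74 and 8.39 at the lowest, median and highest mutant, against 8.11, 8.43 and 8.88 in controls (raw intensity 217 to 425 against 302 to 571), and fell by 0.59 (SE 0.131, limma adjusted p = 0.00229), so that the intensity fell by 33.7%. Of the 6 mutants 5 lay below every control, and mutant 5 lay among the controls; the lowest control was control 10. Without any 1 array the change stayed between -0.70 and -0.54 with an adjusted p of at most 0.00803, and within slide 1 it was -0.57 (adjusted p = 0.00902); within slide 2 it was -0.45 and missed the threshold (adjusted p = 0.250).

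Cyp51, the demethylase that acts first on lanosterol, read 6.97, 7.47 and 7.55 in mutants and 7.31, 7.67 and 7.98 in controls, and fell by 0.33 (SE 0.112, limma adjusted p = 0.0349). Mutants 2 and 5 lay below every control and the other 4 mutants overlapped with the lower controls. The change was -0.32 on slide 1 and -0.34 on slide 2, past the threshold on neither (adjusted p = 0.276 and 0.203). Leaving out mutant 2 or 5, or control 1, 3, 6 or 7, ended the call, with an adjusted p of 0.0565 to 0.105 and a change of -0.32 to -0.25.

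Ebp, the isomerase that shifts the sterol ring double bond, read 8.82, 9.03 and 9.26 in mutants and 9.09, 9.22 and 9.36 in controls, and fell by 0.21 (SE 0.074, limma adjusted p = 0.0406). Mutants 1, 2 and 6 lay below every control and the other 3 lay within their range. This was the weakest of the 8 calls by adjusted p, and 10 of the 16 arrays ended it when left out: mutants 1, 2 and 6 and controls 4 to 10, with an adjusted p of 0.0517 to 0.113 (0.0521 without control 10). The change was -0.19 on slide 1 and -0.16 on slide 2 (adjusted p = 0.295 and 0.415), and with slide as a block the call was also lost (-0.18, adjusted p = 0.0681).

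Hsd17b7, a keto-reductase in the removal of the C4 methyl groups, was the sole gene called higher. It read 9.79, 10.10 and 10.22 at the lowest, median and highest mutant, against 9.54, 9.69 and 9.99 in controls, and rose by 0.33 (SE 0.081, limma adjusted p = 0.00518), or by 25.4%. Every mutant lay above the control median, and 2 controls, 2 and 10, lay above the lowest mutant. The call held without each array in turn (adjusted p at most 0.0169), and the change was 0.37 on slide 1 and 0.25 on slide 2, past the threshold on neither (adjusted p = 0.0797 and 0.234).

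Tm7sf2, a sterol C14 reductase, changed by 0.03 (-0.19 to 0.25) and was not called. Nsdhl, the decarboxylating dehydrogenase of C4 demethylation, is on the array with 4 probes, all tested, and they differed in their calls. The brightest read 6.14, 6.61 and 6.77 in mutants and 5.95, 6.47 and 6.88 in controls (change 0.08, limma adjusted p = 0.706). A dimmer probe read 6.23, 6.36 and 6.58 in mutants and 5.68, 6.03 and 6.28 in controls and was higher (change 0.37, adjusted p = 0.00953), while the remaining ones changed by 0.17 and 0.05 with adjusted p = 0.458 and 0.784. All 4 changes were above 0, and the gene is counted as not called.

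**Figure D2:**
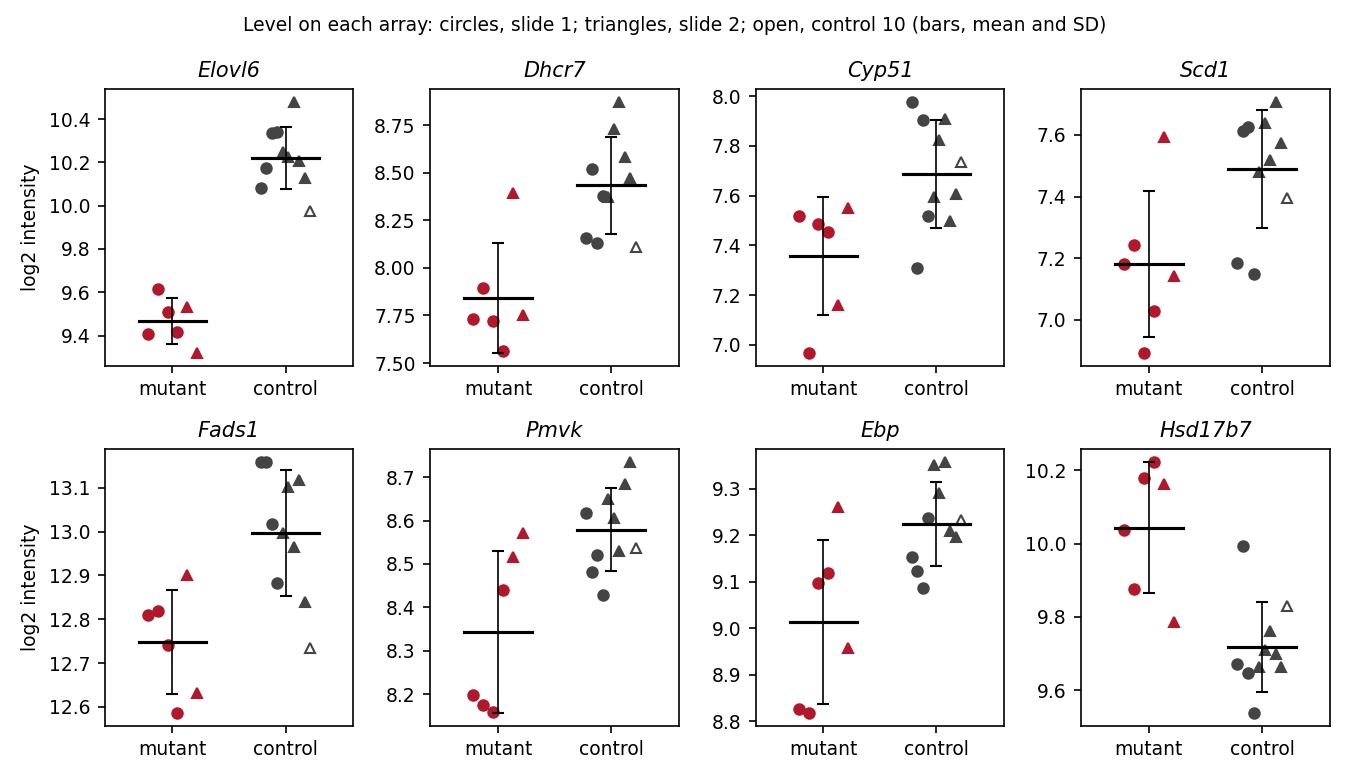
Level of the 8 called genes on each array, on the log2 intensity scale, with mutants left of controls, the mean and SD as bars, slide 1 as circles, slide 2 as triangles and control 10 as an open symbol. The groups stand clear of each other for Elovl6; for Dhcr7, 5 of 6 mutants lie below all controls, and in the other panels the groups overlap.

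None of the 5 tested genes that regulate SREBP or carry sterol was called by limma, and 0 had an unadjusted p under 0.05; their median change was -0.01. Srebf2, the SREBP that drives the sterol genes, read 8.51, 8.63 and 8.89 in mutants and 8.32, 8.72 and 8.91 in controls (change -0.01, -0.20 to 0.18). Srebf1, the SREBP that drives fatty acid genes, read 7.51, 7.82 and 8.15 in mutants and 7.49, 7.68 and 8.08 in controls (change 0.14, -0.09 to 0.36); its other probe was detected on no array. Both genes overlapped across the groups. The per-array log2 difference of Srebf1 minus Srebf2 averaged -0.82 ± 0.18 in mutants (SD, n = 6) and -0.96 ± 0.20 in controls (SD, n = 10), which an exact two-sided permutation test did not separate (p = 0.168, 0.224 adjusted over 4 gene pairs).

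Scap, the escort of the SREBPs, changed by -0.05 (-0.27 to 0.16), and Stard4, a carrier that moves cholesterol between membranes, by -0.01 (-0.20 to 0.17). Insig1, which retains the Scap complex and is itself an SREBP target, had the largest change of these 5 and a wide interval. It read 7.96, 8.32 and 8.88 in mutants and 8.12, 8.69 and 9.21 in controls (change -0.33, -0.67 to 0.01, limma adjusted p = 0.146). Mutant 2 lay below every control and the other 5 lay among them, and the change shrank to -0.18 on slide 1 and -0.20 on slide 2. A dim Insig1 probe changed by 0.04 and its remaining probes, detected on 0 or 1 of the arrays, were not tested.

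In the fatty acid arm 8 genes were tested, 3 were lower and 0 were higher by limma (1, Acaca, at an unadjusted p under 0.05), and the median change was -0.09 with 5 of 8 changes below 0. Among all genes the shares were 14% lower and 15.9% higher. Elovl6, the elongase that takes palmitate to stearate, had the largest and firmest change of all 26. It read 9.32, 9.46 and 9.62 at the lowest, median and highest mutant, against 9.98, 10.22 and 10.48 in controls (raw intensity 621 to 862 against 1049 to 1614). It fell by 0.75 (SE 0.075, limma adjusted p = 6.12e-07), so that the intensity fell by 40.7%, and ranked 169 of 9682 genes by p.

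Elovl6 was the single gene of the 26 whose groups did not overlap: the highest mutant lay below the lowest control, which was control 10. Of all genes tested 5.26% had every mutant below every control and 3.94% every mutant above. The change was -0.75 within slide 1 (adjusted p = 0.000689) and -0.79 within slide 2 (adjusted p = 0.0110), and leaving out any 1 array kept it between -0.78 and -0.72. Dhcr7 and Elovl6 were the lower calls within slide 1, 2 of 26 genes against 9.74% of all genes, and Elovl6 was the one within slide 2, against 4.94%; Hsd17b7 passed within neither slide, where 8.39% and 2.77% of all genes were called higher.

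Elovl5, the elongase of polyunsaturated chains, did not move with Elovl6. It read 12.48, 12.60 and 12.78 in mutants and 12.33, 12.58 and 12.71 in controls (change 0.07, -0.08 to 0.22). The per-array log2 difference of Elovl5 minus Elovl6 averaged 3.15 ± 0.17 in mutants (SD, n = 6) and 2.33 ± 0.16 in controls (SD, n = 10), higher by 0.82 (SE 0.084) and above every control in 6 of 6 mutants. The exact permutation p was 0.000125, the smallest that 8008 splits of the arrays can give, and 0.0005 after adjustment over the 4 pairs. The pair was chosen with earlier results of these data known. Elovl6 alone already separated the groups in full, so this p mostly restates its fall.

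The desaturases gave 2 calls of 4, against 29.9% of all genes called in either direction. Scd1, a stearoyl-CoA desaturase that makes oleate, read 6.89, 7.16 and 7.59 in mutants and 7.15, 7.55 and 7.71 in controls, and fell by 0.31 (SE 0.106, limma adjusted p = 0.0370). Mutants 3, 4 and 6 lay below every control and mutant 5 lay in the upper part of their range. The call was lost on leaving out any of 12 of the 16 arrays (mutants 1, 2, 3, 4 and 6 and controls 2, 3 and 5 to 9), with an adjusted p of 0.0512 to 0.102, and the change was -0.31 on slide 1 and -0.18 on slide 2, past the threshold on neither (adjusted p = 0.192 and 0.469). With slide as a block it also missed the threshold (-0.25, adjusted p = 0.0654).

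Scd2, the paralog that predominates in embryonic and neural tissue of the mouse, read 7.52, 7.81 and 8.27 in mutants and 7.17, 7.65 and 8.06 in controls (change 0.24, -0.10 to 0.58, limma adjusted p = 0.296). The groups overlapped widely. The Scd1 minus Scd2 difference was lower by 0.55 in mutants (SE 0.233; -0.68 ± 0.53 against -0.13 ± 0.40, SD), with 3 of 6 mutants below every control, and missed the threshold after adjustment (exact permutation p = 0.0366, adjusted p = 0.0732). Whether either probe also binds the other gene's RNA was not checked here.

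Fads1, the delta-5 desaturase of polyunsaturated fatty acids, read 12.59, 12.78 and 12.90 in mutants and 12.73, 13.01 and 13.16 in controls, and fell by 0.25 (SE 0.077, limma adjusted p = 0.0215). Mutants 4 and 6 lay below every control, and leaving out either ended the call (adjusted p = 0.0588 and 0.05004). The lowest control was control 10 at 12.73, while the other controls read 12.84 to 13.16, and the call held without control 10. Within the slides the change was -0.32 on slide 1 and -0.19 on slide 2. Fads2, the delta-6 desaturase next to it in the route, read 6.78, 7.16 and 7.22 in mutants and 6.96, 7.25 and 7.73 in controls (change -0.17, -0.39 to 0.05, adjusted p = 0.249), with every mutant below the control median. The Fads1 minus Fads2 difference averaged 5.65 ± 0.22 in mutants and 5.72 ± 0.30 in controls (SD; exact permutation p = 0.591, also after adjustment), so the test did not separate their changes, with a difference of -0.08 (SE 0.141).

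Neither tested gene at the supply end of the arm was called. Acly, the citrate lyase that provides cytosolic acetyl-CoA, read 12.79, 12.88 and 13.07 in mutants and 12.75, 12.89 and 13.00 in controls (change -0.00, -0.13 to 0.12). Acaca, acetyl-CoA carboxylase, read 10.48, 10.58 and 10.77 in mutants and 10.33, 10.42 and 10.57 in controls (change 0.16, 0.03 to 0.29, limma adjusted p = 0.0670). Every mutant lay above the control median for Acaca, and the gene passed the threshold when slide was a block. Fasn, not tested, read 4.64 to 5.84 in mutants and 4.96 to 5.66 in controls, at the level of the negative control beads on most arrays.

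**Figure D3:**
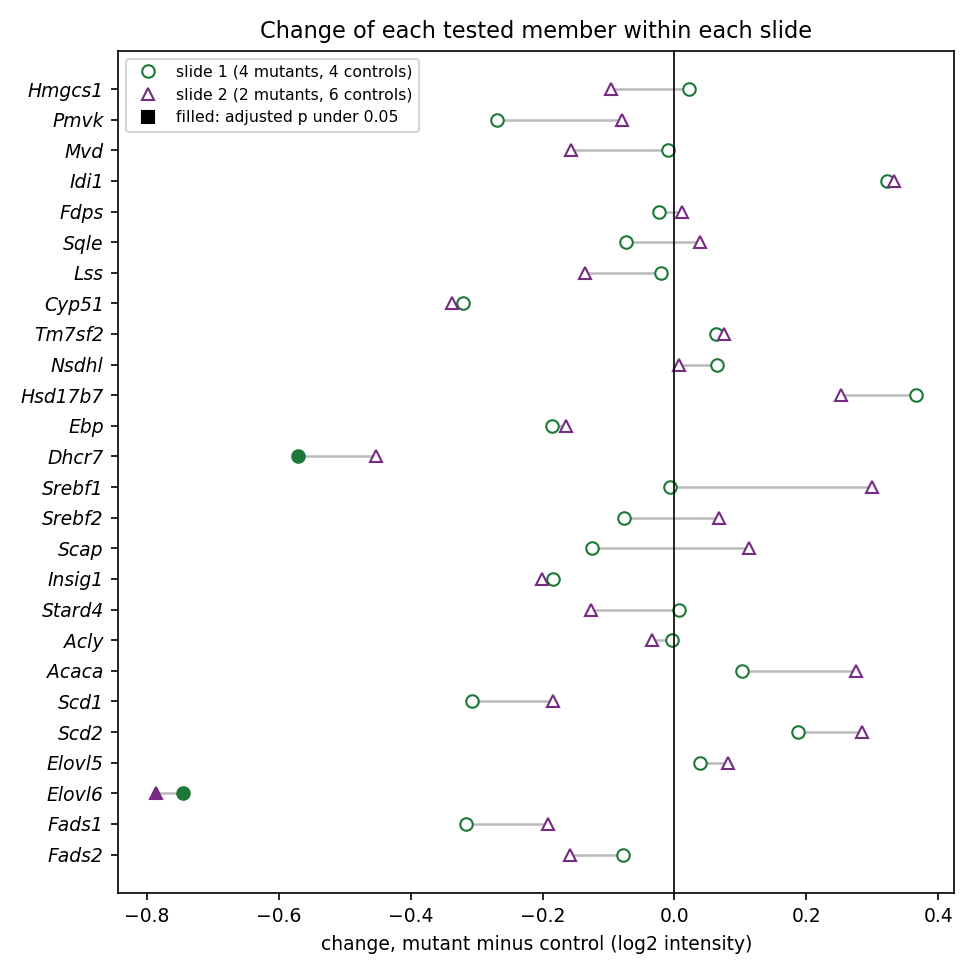
Change of each of the 26 genes, mutant minus control, on the log2 intensity scale, computed within slide 1 (green circles, 4 mutants and 4 controls) and within slide 2 (purple triangles, 2 mutants and 6 controls), with filled symbols where the adjusted p was under 0.05. The signs match on both slides for 19 of 26 genes and for 8 of 8 called genes; Elovl6 is filled on both slides and Dhcr7 on slide 1.

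Set side by side, the arms gave 4 lower and 1 higher of 13 in the sterol route, 0 of 5 among the regulators and 3 lower of 8 in the fatty acid arm. Over all genes 14% were lower and 15.9% higher, and the counts of these small arms were not tested against those shares. The mean over an arm's tested genes was taken on each array as a difference from the control mean. That mean was compared with both slides pooled, although slide 2 held 2 mutant and 6 control arrays. In the sterol arm it was -0.19, -0.11 and 0.06 at the lowest, median and highest mutant, against -0.19, -0.00 and 0.16 in controls, and the groups overlapped in full. Among the regulators it was -0.24, -0.06 and 0.14 in mutants and -0.23, 0.01 and 0.14 in controls. In the fatty acid arm it was -0.17, -0.13 and -0.05 in mutants and -0.07, -0.03 and 0.11 in controls, with 5 of 6 mutants below every control. Elovl6 carried most of that separation: over the other 7 genes, with 3 changes above 0, the mean was -0.11, -0.04 and 0.04 in mutants and -0.08, -0.02 and 0.10 in controls, with 1 of 6 mutants below every control. Within slide 1 and slide 2 the median change was -0.02 and -0.08 in the sterol arm, -0.08 and 0.07 among the regulators, and -0.04 and -0.10 in the fatty acid arm. Mutant 5, on slide 2, was the highest mutant for Dhcr7, Scd1, Fads1 and Ebp, and it was also the mutant nearest to the controls on the first principal component. For Elovl6 and Pmvk another mutant was highest, and for Cyp51 mutant 5 lay below every control.

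**Figure D4:**
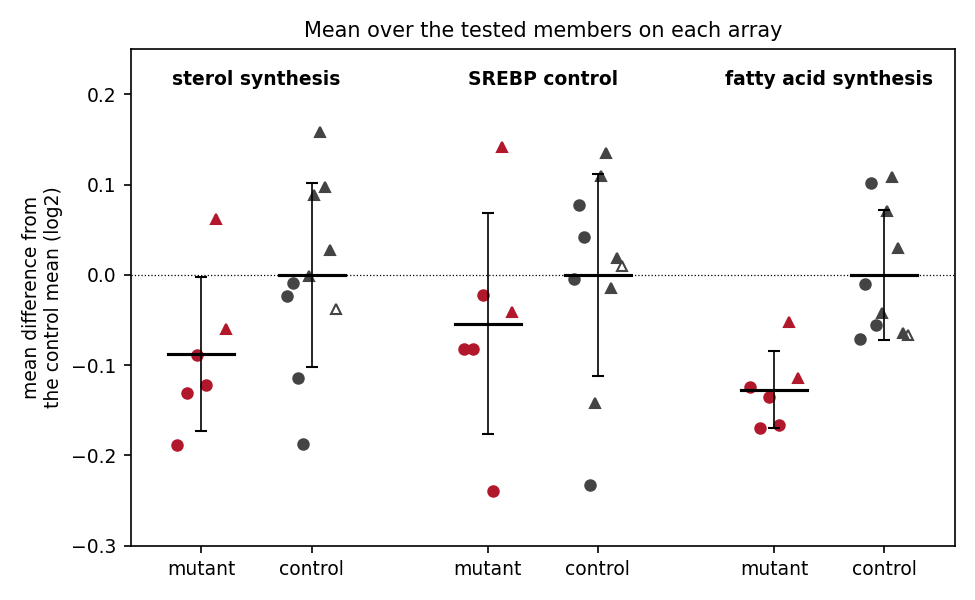
Mean over the tested genes of each arm on each array, as the log2 difference from the control mean, with mutants left of controls, mean and SD as bars, slide 1 as circles, slide 2 as triangles and control 10 open. The arms rest on 13, 5 and 8 genes; the groups overlap in the sterol and SREBP control panels, and in the fatty acid panel, where Elovl6 weighs most, the mutants lie at -0.17 to -0.05 against -0.07 to 0.11 in controls.

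Genes around the sterol route that are not among the 30 were read from lists of their pathways. Of 4 other tested genes of sterol synthesis 2 were higher, against 15.9% of all genes: Cyb5r3, a reductase that hands electrons to the sterol oxidases (change 0.46, limma adjusted p = 0.00609), and Erg28, a scaffold of the C4 demethylation complex (0.24, adjusted p = 0.00624). Neither passed within a slide alone (Cyb5r3 0.50 and 0.52, Erg28 0.23 and 0.28 on slides 1 and 2). Of 13 other genes of sterol sensing, each read from its brightest kept probe, 0 were called by limma. Of these 1 had an unadjusted p under 0.05, and the median change was 0.12. A dimmer Insig2 probe was lower (change -0.32, limma adjusted p = 0.0332). For Erlin2 a dimmer probe was higher (0.57, adjusted p = 0.0256) and another changed by 0.19 (adjusted p = 0.195). Of 10 genes of the isoprenoid branch, which uses the same farnesyl diphosphate, 0 were called, with 2 at an unadjusted p under 0.05.

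Genes of sterol uptake, storage and efflux gave 3 higher and 1 lower of 13, and 4 called of 13 is near the 29.9% called among all genes. Vldlr, a receptor for lipoproteins, read 9.68, 9.92 and 10.13 at the lowest, median and highest mutant and 10.38, 10.66 and 10.99 in controls, so that the groups did not overlap, and fell by 0.74 (limma adjusted p = 3.3e-06). Stard5, a sterol carrier, read 9.04, 9.06 and 9.41 in mutants and 8.30, 8.54 and 8.85 in controls, again with no overlap, and rose by 0.60 (adjusted p = 1.95e-05); of all genes, 5.26% had every mutant below every control and 3.94% every mutant above. Abcg1, an exporter of cholesterol with high levels in macrophages, rose by 0.47 (adjusted p = 0.00527) and missed the threshold within each slide (0.43 and 0.33). Macrophage markers were also higher in mutants, and their part in that rise was not tested.

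Around fatty acid synthesis, 5 of 18 other tested genes were lower and 2 higher, against 14% and 15.9% of all genes. Hacd2, a dehydratase of the elongation cycle that the Elovl enzymes open, read 5.77, 6.02 and 6.25 in mutants and 6.35, 6.91 and 7.02 in controls, with no overlap, and fell by 0.78 (limma adjusted p = 2.27e-05). Its paralog Hacd1 read 10.11, 10.23 and 10.37 in mutants and 10.57, 10.76 and 10.95 in controls and fell by 0.53 (adjusted p = 1.07e-05), while a dimmer Hacd1 probe changed by -0.58 without passing (adjusted p = 0.0852). Hacd3, which like Hsd17b12, Tecr, Thrsp, Cyb5a and Cyb5b below was named after its value was seen, fell by 0.35 (adjusted p = 0.000751); on slide 2 Hacd2 and Hacd3 missed the threshold (adjusted p = 0.0570 and 0.0956).

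The enzymes of the other steps of that cycle gave no call: Hsd17b12, the keto-reductase, changed by -0.09, and Tecr, the final reductase, by -0.10. Me1, malic enzyme, which supplies NADPH for lipid synthesis, read 7.61, 7.89 and 8.07 in mutants and 8.29, 8.42 and 8.64 in controls, without overlap, and fell by 0.57 (limma adjusted p = 4.13e-05); its other probe changed by -0.26 (adjusted p = 0.378). Thrsp, a lipogenic gene of thyroid hormone response, was detected on 0 mutant and 7 control arrays, so it passed the detection limit through controls alone. It was at least 1.18-fold lower (limma adjusted p = 0.0293), a bound taken against the dimmest detected signal on each array. The call was lost without mutant 2 (adjusted p = 0.0874), without the filter (0.0523), with array weights (0.0679) and within slide 2 (0.498). Cyb5a and Cyb5b, cytochromes that feed the desaturases, were the 2 higher genes (0.37 and 0.24), and Cyb5b missed the threshold under median scaling and within each slide (adjusted p = 0.0925, 0.129 and 0.419).

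Further along, genes of acyl activation and glycerolipid synthesis gave 4 higher and 3 lower of 20, shares of 20% and 15% that are near those of all genes (15.9% and 14%). Acsl6, which activates long fatty acids, read 7.29, 7.68 and 8.19 in mutants and 8.97, 9.61 and 9.81 in controls and fell by 1.84 (limma adjusted p = 8.12e-09). Lpin1, a phosphatidate phosphatase, fell by 1.08 (adjusted p = 5.53e-06), and Cds1, which makes CDP-diacylglycerol, rose by 0.79 (adjusted p = 1.07e-06). For all 3 the groups did not overlap. Genes of fatty acid uptake and oxidation gave 4 higher and 3 lower of 14, against 15.9% and 14% of all genes, with Acadm, a mitochondrial acyl-CoA dehydrogenase, higher by 0.70 (adjusted p = 1.86e-05) beside the higher skeletal muscle markers. Pnpla2, a triglyceride lipase, fell by 0.48 (adjusted p = 0.00201), and Fabp3, a fatty acid carrier, by 0.74 (adjusted p = 0.00349). Within slide 2 Acadm, Pnpla2 and Fabp3 missed the threshold (0.53, -0.36 and -0.36; adjusted p = 0.0715, 0.0851 and 0.334). The part of the muscle markers in these values was not tested.

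**Figure D5:**
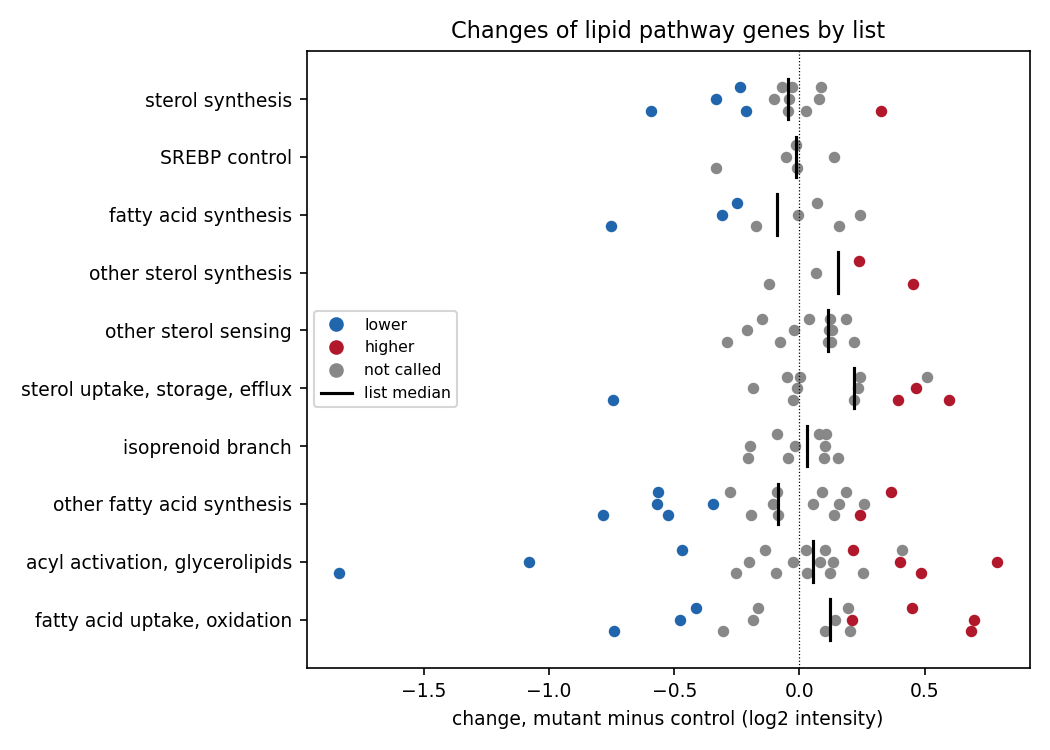
Change of every tested gene in the 3 groups of the 30 genes (top rows) and in 7 other lipid lists, mutant minus control on the log2 intensity scale, blue where called lower, red where called higher, grey where not called, with the list median as a bar. The medians lie between -0.09 and 0.22; Acsl6 at -1.84 is the farthest point, and the sterol sensing, SREBP control and isoprenoid rows hold no coloured point.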

How the data were processed

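The 30 genes, the lists around them and the 4 gene pairs were chosen with earlier results of these data known. Per the file headers, the deposited table gives each of 25697 probes a mean bead intensity on every array. Beside it stands a deposited detection p-value. The array medians differ and no value lies at or below 0, so these intensities were read as not normalised. The submitters' processing notes name GenomeStudio (version not given in the sources used here). A deposited series matrix of linear intensity values, whose normalization is not stated, ranks probes as the raw table does (Spearman correlation 1) and served as an alternative, with values under 16 set to 16.

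From the deposited intensities, log2 levels were computed here with limma 3.58.1 in R 4.3.3 (nec background correction, which reads the negative controls through the detection p-values, offset 16, then quantile normalisation). A probe was kept where that p-value was under 0.01 on 6 or more arrays, which left 13813. They were fitted with lmFit and eBayes, with genotype as the only term and Benjamini-Hochberg adjustment over all of them at 0.05; the adjusted p-values of genes are limma's from that fit. A gene is read from its kept probe of highest mean. Of the probes 23978 carried 1 gene symbol in the platform annotation, 0 several, and 1719 are unnamed here. Groups came from the sample titles, and slides from the array names. Pairs were tested by exact two-sided permutation over the arrays. Named genes were all 30, both members of each pair, and from each other list the 3 called genes with the smallest adjusted p. Alternatives covered background correction, normalisation, filter, slide, replicate number, variance model, array weights, probe choice and each array left out. Precision is limited by the number of arrays.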

Additional observations from a re-analysis of the deposited data

Results flagged for a closer look

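Among the 27 genes with a probe, each measured in 2 groups, 54 sets of values were searched for a single array far from its group, and 3 held one; by chance about 1 set in 20 would. Mutant 1 read 10.06 for Fdps, against 10.45 for the next mutant and 10.67 for the highest. Mutant 2 read 6.78 for Fads2, against 7.09 for the next mutant and 7.22 for the highest. Control 8 read 8.55 for Stard4, against 8.89 for the next control and 9.11 for the highest. None of these 3 genes was called with all arrays or without the array in question.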

How the results depend on the processing

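Elovl6 kept its direction and its call under all 16 alternatives (change -0.79 to -0.71), Dhcr7 under 15 (lost within slide 2) and Hsd17b7 under 14 (lost within each slide). The 7 lower genes became 2 at an adjusted p under 0.01, 3 under median scaling (Cyp51, Dhcr7 and Elovl6), 4 with a replicate block (without Scd1, Pmvk and Ebp, adjusted p = 0.114, 0.0907 and 0.0869), 2 within slide 1, 1 within slide 2, and 3 to 6 as each array was left out. The 1 higher gene became 2 with slide as a block and 0 within slide 1 and 0 within slide 2. Calls over all genes were 1540 higher and 1351 lower; the higher ones were 903 at an adjusted p under 0.01, 812 within slide 1 and 268 within slide 2, the lower ones 478 within slide 2, and cyclic loess gave 1250 higher and 1505 lower. The Elovl5 and Elovl6 difference was 0.78 within slide 1 and 0.87 within slide 2 (exact permutation, adjusted p = 0.114 and 0.143, the smallest that 8 arrays allow). The fatty acid median was -0.0040 without the filter, where Fasn enters, and -0.0040 without Elovl6, an alternative chosen after seeing the data. For the changes in calls by normalisation and slide the cause was not tested; each slide holds fewer arrays.

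These genes, called in none of these settings, changed sign: with array weights Acly (0.00019), Idi1 (-0.066), Stard4 (0.013) and Tm7sf2 (-0.0031); with a replicate block Hmgcs1 (0.0044) and Srebf2 (0.0056); under cyclic loess Tm7sf2 (-0.027); with the mean of all probes Sqle (0.018); within slide 1 Hmgcs1 (0.022), Srebf1 (-0.0066) and Stard4 (0.0075); and within slide 2 Fdps (0.011), Scap (0.11), Sqle (0.039) and Srebf2 (0.067). With each array left out in turn the changes spanned 0 for Acly (-0.041 to 0.016), Fdps (-0.082 to 0.040), Idi1 (-0.069 to 0.25), Scap (-0.15 to 0.012), Srebf2 (-0.056 to 0.022), Stard4 (-0.066 to 0.029) and Tm7sf2 (-0.028 to 0.072). Mutants and controls share replicate numbers, and same-numbered arrays deviated together with correlations of 0.04 to 0.48 (5 of 6 over 0.1, 4 of 6 best with their own number), or -0.12 to 0.42 after slide was removed (5 of 6 over 0.1, 3 of 6 best). No label says what a number marks, and not every pair was over 0.1, so the numbers were not taken as pairs. Dim probes such as those of Idi1 and Fasn limit what can be said of these genes.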
